A study of Mus musculus with 4 samples.

Results

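Mural cells are the pericytes and smooth muscle cells that wrap the endothelial tube of small vessels. They were taken here from sorted cells of the mouse dentate gyrus, the part of the hippocampus that makes neurons in the adult. A well, which held 1 sorted cell, was kept if it had 500 to 6000 genes above 0 counts. It was called mural if at least 3 of 6 mural marker genes (Pdgfrb, Rgs5, Vtn, Notch3, Myl9 and Acta2) had 10 counts or more, below called a hit, and if no panel of 6 markers for oligodendrocytes, astrocytes, endothelial cells or neuroblasts had as many hits. This gave 85 mural wells of 716 kept wells (11.9%, Wilson 95% interval 9.70% to 14.4%), out of 768 in all. The other kept wells were 298 of the oligodendrocyte, 196 of the astrocyte, 86 of the endothelial and 30 of the neuroblast panel, and 21 had no class.

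The study infused an oligonucleotide into a cerebral ventricle of male nestin-GFP mice at 2 months of age and took cells at 3 months. All 8 mice carried the nestin-GFP reporter. Antagomir mice (mice 2, 4, 6 and 8, n = 4) received 2 µl of Ant-132 at 0.33 nmol/ml, an oligonucleotide against the microRNA miR-132 that is built with locked nucleic acids and carries cholesterol. Scrambled mice (mice 1, 3, 5 and 7, n = 4) received a scrambled oligonucleotide with locked nucleic acids, at a dose the labels leave unstated. From each mouse 96 GFP-positive cells were sorted and read by Smart-seq2, a plate method that copies polyadenylated RNA and has no molecular tags, so that a count is a read. The sort took only cells with the reporter signal, so shares of wells are shares of that gate and not of the tissue. The mice gave 13, 11, 12 and 7 mural wells in the scrambled and 8, 13, 14 and 7 in the antagomir group. A mural well had 51212 to 1110871 counts (median 542607) and 920 to 3098 detected genes (median 1984). Mural counts summed per mouse ran from 3214955 to 7467687. A level below is counts of a gene over the mural wells of a mouse per 1000000 counts of those wells (CPM). The median mitochondrial share of mural counts was 0.763% to 1.04% per mouse in project L5 (mice 1, 2, 5 and 6) and 2.48% to 3.79% in project L6 (mice 3, 4, 7 and 8), as the deposited well table names these sets. Each project held 2 mice of each treatment, and both had the same days of sort, cDNA reaction, library preparation and pooling, while the days of cDNA purification differed in part.

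Pericytes sit in the basement membrane of capillaries and depend on PDGF-B from the endothelium, which binds the receptor Pdgfrb on their surface. Smooth muscle cells ring arterioles and venules, and their actin and myosin let the vessel change its width. Both respond to endothelial and neural signals through ion channels, G protein-coupled receptors and cyclic GMP. A microRNA such as miR-132 pairs with messenger RNAs mainly through its seed, and an antagomir is meant to occupy the microRNA. The seed is given here since it is the sequence that the treatment was aimed at. The mature 3p product as listed by RefSeq (GRCm38.p6, chr11:75173723-75173744, plus strand) is shown 5′ to 3′ with the seed, bases 2 to 8, in capitals. Its level is not measured by these libraries.
mmu-miR-132-3p: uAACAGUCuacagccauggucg

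Because the 6 markers chose the wells, their shares only describe the class. Myl9, a regulatory light chain of myosin, was hit in 98.8% of mural wells, Pdgfrb in 96.5%, Vtn, the matrix protein vitronectin, in 95.3%, Rgs5, a brake on G protein signalling, in 92.9%, and the receptor Notch3 in 87.1%. Acta2, the actin of smooth muscle, was hit in only 17.6%. Of the 85 wells, 60 had 5 of the 6 markers, 10 had all 6, 10 had 4 and 5 had 3. Just outside the rule, 30 kept wells had exactly 2 mural hits, of which 16 were in the astrocyte class, 3 in the endothelial class and 11 in no class, and 1 kept well with at least 3 hits was tied for first place. No mural well had a hit in the oligodendrocyte or neuroblast panel. There were 8 with a hit in the endothelial panel (at most 2 of its 6 genes) and 17 with a hit in the astrocyte panel, of which 1 had 4 and 4 are the wells described next.

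The label did not hold for 4 of the wells. The fibroblast markers listed for a check of other cell types were Dcn and Lum, proteoglycans of loose connective tissue, the collagen genes Col1a1 and Col1a2, the receptor Pdgfra and the transporter Slc6a13. In 4 mural wells, 1 each from mice 2, 3, 7 and 8, at least 3 of these 6 genes were hit, a limit set after the values were seen. All 4 had Dcn, Col1a1, Col1a2, Pdgfra and Slc6a13, and 3 had Lum. Dcn had 3472 to 17705 counts in them, and was hit in 2 of the other 81 mural wells. They met the mural rule with exactly 3 hits, through Pdgfrb, Vtn and Myl9, while Rgs5 and Notch3 had at most 1 count. They thus made up 4 of the 5 wells just inside the threshold. The remaining 81 wells had at most 2 of the 6 fibroblast genes, and 43 of them had 1 or 2, since Slc6a13 was hit in 31 of the 81 and Col1a2 in 22. Igf2, an insulin-like growth factor, was hit in all 4 of these wells and in 41 of the other 81. Results that move with these 4 wells are given with and without them.

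Outside the panels, the 20 genes with the largest gap between their share in mural wells and their highest share in any other class were hit in 70.6% to 91.8% of mural wells and in at most 10% of the wells of any other class. The same wells were used to find these genes, so no test is given. Of the 20, 10 were also on the pericyte list. Higd1b, a mitochondrial protein of the hypoxia-induced gene family, was hit in 91.8% of mural wells against 3.49% of endothelial wells, with levels of 1313 to 2874 CPM over the mice. Ndufa4l2, a protein related to a respiratory chain subunit, was hit in 89.4%, and Cox4i2, a form of cytochrome oxidase subunit 4 that other tissues use little, in 84.7%. Several were membrane transporters. Slc6a20a, a carrier of proline and related amino acids, was hit in 87.1%, the folate carrier Slc19a1 in 83.5% and the amino acid transporter Slc38a11 in 70.6%. Atp13a5, a transport ATPase, was hit in 83.5%, with 7.65% of astrocyte wells. Slc38a11 had no hit in the wells of the other 4 classes.

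Others were surface enzymes and receptors. Enpep, the aminopeptidase that cuts angiotensin II, was hit in 71.8% of mural wells and in none of the other classes, and Ggt5, which cleaves leukotriene C4, in 72.9%. The proteoglycan Cspg4, known as NG2, was hit in 82.4% and the surface protein Cd248 in 83.5%. S1pr3, a receptor for sphingosine 1-phosphate, was hit in 89.4%, the nucleotide sugar receptor P2ry14 in 76.5% and the oestrogen-responsive receptor Gper1 in 76.5%. Adap2, which acts on small GTPases of the Arf family, was hit in 84.7% and Adap2os in 76.5%. These last 2 genes overlap on opposite strands, and with no strand setting given their reads cannot be told apart. With each well thinned to 200000 counts, which left out 7 of the 85 mural wells, the 20 genes were hit in 69.2% to 92.3% of mural wells. In the 4 fibroblast-marker wells, 11 of the 20 had no hit, while Slc6a20a was hit in all 4.

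**Figure D1:**
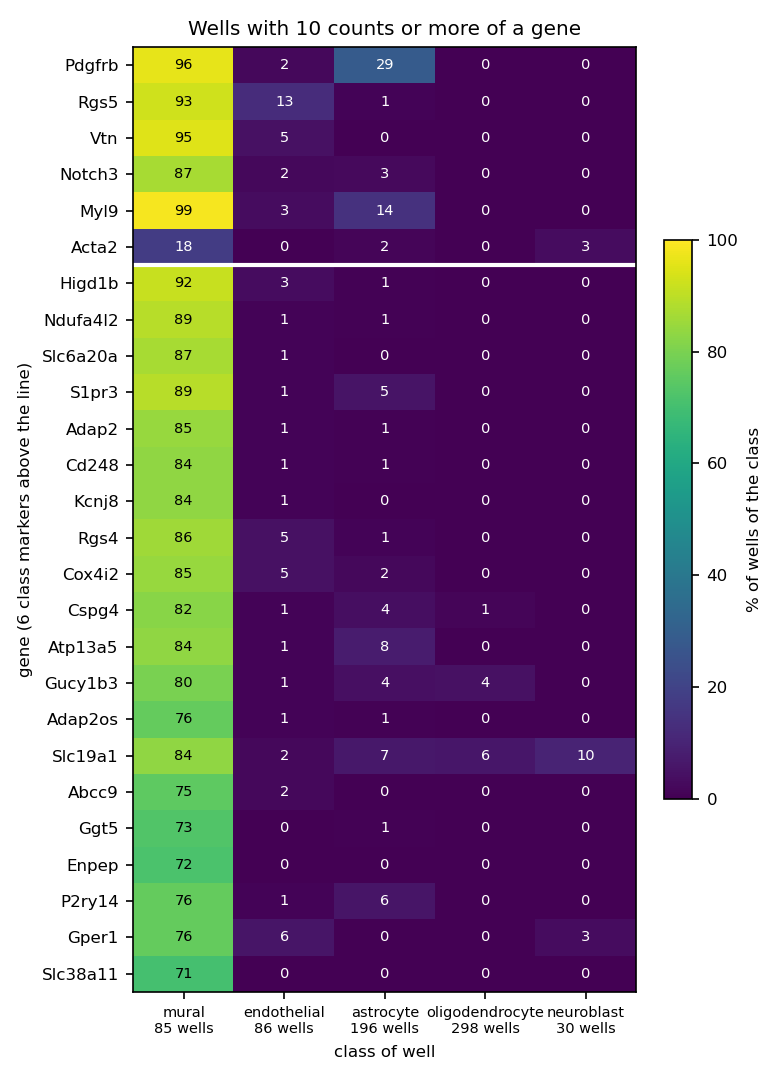
Share of wells (%, colour and printed value) with 10 counts or more of each gene, in rows, for the 5 classes, in columns. The 6 genes above the white line chose the mural class. The 20 below it were named for their gap, and they reach at most 10% in the other classes.

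The potassium channel that couples metabolism to vessel tone was read through both of its subunits. Kcnj8, the pore of the ATP-sensitive channel, was hit in 83.5% of mural wells and Abcc9, its sulfonylurea receptor, in 75.3%, and both were at 1.16% to 2.33% in endothelial wells and at 0 in the other 3 classes. Kcnj8 had 1898, 4675, 4254 and 2492 CPM in the scrambled and 3329.6, 3847, 2294 and 4429.6 CPM in the antagomir mice. Abcc9 had 1474, 2696, 3792 and 2228 CPM and 1997, 2879, 1274 and 1921 CPM. The groups overlapped for both genes. Per kilobase of exon, Kcnj8 had 1335 ± 418 and Abcc9 273 ± 97.8 CPM per kb (SD, n = 8).

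Of 41 genes listed for vasomotor receptors, channels and cyclic nucleotide signalling, 39 were in the table, 34 were hit in at least 1 mural well and 24 had their highest share in the mural class. Rgs4, a brake on Gq signalling, was hit in 85.9% of mural wells at 3556 ± 800.1 CPM (SD, n = 8). The soluble guanylate cyclase, which makes cyclic GMP when nitric oxide binds, was seen through both subunits, Gucy1b3 in 80% and Gucy1a3 in 75.3%. The endothelin receptor Ednra was hit in 70.6% of mural and 1.16% of endothelial wells, and the neuropeptide Y receptor Npy1r in 44.7% of mural wells. The L-type calcium channel Cacna1c was hit in 40%, Kcnmb1, the subunit that tunes the large-conductance potassium channel to calcium, in 28.2%, and the phosphodiesterase Pde3a in 34.1%.

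Pdgfrb is the receptor of the class rule, with 1214 to 3966 CPM over the 8 mice. Its ligand Pdgfb was hit in 1 of 85 mural wells (1.18%) and in 22.1% of endothelial wells. Pdgfa, the ligand of Pdgfra, was hit in 11 mural wells (12.9%) and in 5.81% of endothelial wells. Pdgfra was hit in the 4 fibroblast-marker wells and in 0 of the other 81, which allows a share of hits of up to 3.70% there. The receptors of the angiopoietin and VEGF systems were rare, with Tek and Tie1 in 1 mural well each and Flt1 in 7 (8.24%), against 68.6%, 68.6% and 100% of endothelial wells, where Flt1 had chosen the class. The angiopoietins were thin as well, Angpt2 in 12.9% and Angpt1 in 7.06% of mural wells. The sphingosine 1-phosphate receptors split by class, S1pr3 in 89.4% and S1pr1 in 1.18% of mural wells against 1.16% and 95.3% of endothelial wells.

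Of the 22 genes of the Notch list, 17 were hit in some mural well, and 9 had their highest share there. Besides Notch3, which the rule used, the receptor Notch1 was hit in 74.1% of mural and 64.0% of endothelial wells, with 887 to 1119.8 CPM over the 8 mice. Notch4 ran the other way, at 9.41% and 54.7%. Among target genes Heyl was hit in 70.6% of mural and 1.16% of endothelial wells, Hey2 in 37.6% and 2.33%, and Hey1 in 1.18% and 13.95%. Hes1 differed little, at 47.1% and 45.3%. The ligand Jag1 was hit in 18.8% of mural wells.

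In the TGF-beta and BMP list, 24 of 26 genes were hit in some mural well and 5 had their highest share there. The co-receptor Eng was hit in 65.9% of mural and 94.2% of endothelial wells, and the receptor Acvrl1 in 5.88% and 69.8%. The BMP target Id1 was hit in 17.6% and 86.0%. Ligands were found in a minority, with Bmp4 in 18.8% and Bmp5 in 20% of mural wells and in 0 endothelial wells. Of 27 genes of basement membrane and vascular matrix, 25 were hit in some mural well, 12 in at least 50% and 16 most often in the mural class. Collagen IV was made in both vascular classes, Col4a1 in 76.5% of mural and 66.3% of endothelial wells. The small proteoglycan Bgn was hit in 76.5% and 0%, the laminin chain Lama2 in 67.1% and 1.16%, and the linker nidogen, Nid1, in 72.9% and 16.3%.

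Wells differed among themselves along a range from pericyte to smooth muscle genes. The contractile genes counted were Myh11 (myosin heavy chain of smooth muscle), Tagln, Cnn1, Lmod1, Mylk (the kinase that starts contraction) and Tpm2, and the pericyte genes were Kcnj8, Abcc9, Atp13a5, Anpep, Higd1b and Ndufa4l2. Wells with at least 3 of the 6 contractile genes numbered 16 of 85 (18.8%, Wilson 95% interval 11.9% to 28.4%). The range is a count and not a clean break, for 19 wells had 2 contractile hits, just outside, and 7 had 3, just inside. Of the 85 wells, 62 had 5 or 6 pericyte genes. In the 9 wells with 4 or more contractile genes the pericyte count was at most 4, and in the 2 wells with all 6 contractile genes it was 0 and 1. By mouse, contractile wells numbered 4 of 13, 1 of 11, 1 of 12 and 1 of 7 in the scrambled mice and 1 of 8, 1 of 13, 7 of 14 and 0 of 7 in the antagomir mice. Mouse 6 thus gave 7 of the 16. Project L5 held 13 of them among 47 mural wells and project L6 held 3 among 38.

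**Figure D2:**
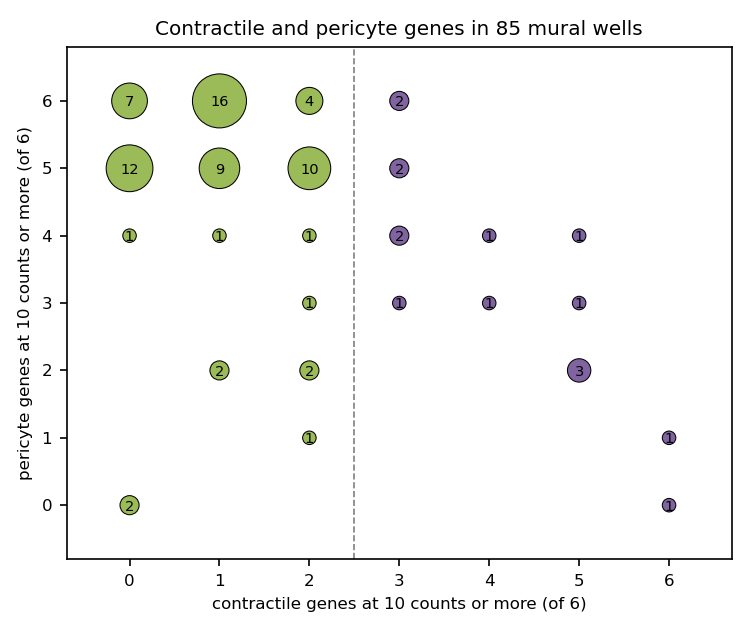
Number of pericyte genes (of 6) against contractile genes (of 6) with 10 counts or more in each of the 85 mural wells. The area of a circle and the number in it give the wells at that point, and circles right of the dashed line are the 16 contractile wells, of which the 9 with 4 or more contractile genes have at most 4 pericyte genes.

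Contractile wells were not chosen on Acta2, and among genes outside the 6 that chose them it had the largest gap in share, 75% against 4.35%. Without mouse 6 the shares were 66.7% of 9 and 4.84% of 62 wells. Its level over all mural wells of a mouse was 7291, 478, 0.374 and 912 CPM in the scrambled and 3.22, 0, 2998 and 0.311 CPM in the antagomir mice, and mice 1 and 6 were the high ones in their groups. Of the other contractile genes, Des, the muscle intermediate filament, was hit in 62.5% of contractile and 17.4% of the other wells, and Myocd, the coactivator of smooth muscle genes, in 43.8% and 1.45%. Sncg, a synuclein, was hit in 56.2% and 1.45%, Rgs7bp, a binding partner of RGS proteins, in 62.5% and 8.70%, Fxyd1, a regulator of the sodium pump, in 81.2% and 29.0%, and the matrix protein Tinagl1 in 56.2% and 4.35%. In the 7 mice with both kinds of wells, the contractile share of Sncg and of Tinagl1 was higher in 4 and lower in 0, that of Acta2 higher in 4 and lower in 1, and that of Fxyd1 higher in 4 and lower in 3. Arhgef7, Uba2, Nmnat2, 2010111I01Rik and Prkcdbp completed the 10 genes by this rule, at 56.2% to 81.2% of contractile wells, with Prkcdbp higher in 3 and lower in 3 of the 7 mice. Mice 1 and 6 held 4 and 7 of the 16 contractile wells behind these shares. The others of the 7 mice held 1 each, so a contractile share there is all or none. Of the vasomotor list, Cacna1c was hit in 81.2% and 30.4% and Pde3a in 75% and 24.6%.

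Of the 10 genes with the largest gap in the other direction, 3 were on the pericyte list (Abcc9, Ggt1 and Pla1a). Uchl1, a deubiquitinase best known from neurons, was hit in 6.25% of contractile and 71.0% of the other wells. Its share was lower in 7 of 7 mice, and without mouse 6 it was hit in 0% of 9 and 71.0% of 62. All of these mice but mice 1 and 6 had only 1 contractile well, so the contractile share there is all or none. Abcc9 was hit in 25% and 87.0%, although Abcc9 had no part in choosing the contractile wells. The organic anion transporter Slc22a8 was at 18.8% and 76.8%, Slc6a20a at 50% and 95.7%, the GABA carrier Slc6a13 at 6.25% and 49.3%, and Ptn, the growth factor pleiotrophin, at 56.2% and 100%. Plxdc2, Ggt1, Pla1a and Gm13536 were the other 4. Vtn, a marker of the rule, was hit in 75% and 100%. Contractile wells had a median of 473056 counts and 2224.5 genes, the other mural wells 586231 counts and 1972 genes, and 8 of the other wells but 0 contractile wells had an endothelial hit.

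A pair of members of the contractile list were Myl9, hit in nearly every mural well, and Acta2, hit mostly in contractile ones, and their promoters are shown for that reason. Serum response factor with myocardin binds the CArG box, a 10-base element of CC, a run of A and T, and GG, which reads the same on both strands. The windows run from 250 bases before to 50 after the start listed by RefSeq (GRCm38.p6), 5′ to 3′ on the gene's strand, at chr19:34255324-34255623 (minus strand) for Acta2 and chr2:156775214-156775513 (plus strand) for Myl9. Capitals mark a CArG box or a match with 1 inner letter off.
Acta2: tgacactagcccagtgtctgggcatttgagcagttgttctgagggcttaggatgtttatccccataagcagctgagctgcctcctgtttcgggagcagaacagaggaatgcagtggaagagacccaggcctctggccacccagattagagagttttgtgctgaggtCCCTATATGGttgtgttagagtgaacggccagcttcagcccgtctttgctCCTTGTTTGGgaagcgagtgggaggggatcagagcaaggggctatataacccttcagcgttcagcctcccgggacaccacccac
Myl9: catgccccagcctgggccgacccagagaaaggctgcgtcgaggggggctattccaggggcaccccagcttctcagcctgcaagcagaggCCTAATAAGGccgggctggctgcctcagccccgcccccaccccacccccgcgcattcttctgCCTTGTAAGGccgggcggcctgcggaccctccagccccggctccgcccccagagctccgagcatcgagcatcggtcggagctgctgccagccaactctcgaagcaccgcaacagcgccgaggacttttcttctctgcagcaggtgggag
An exact box stood 161 bases before the start of Myl9. The Myl9 element at 99 bases and the Acta2 elements at 84 and 34 bases each had 1 inner letter off. Of all 32851 windows, 1.63% held an exact box and 9.98% an exact box or a box with 1 inner letter off. Among the 16 contractile-list genes with a window, 3 held an exact box (Myl9, Srf and Vcl) and 4 either form, and among 14 pericyte-list genes 0 and 1 did. A match is a string of letters and not a measured site.

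Nes, the intermediate filament gene behind the reporter, was hit in 77 of 85 mural wells (90.6%, Wilson 95% interval 82.5% to 95.2%). It lies at chr3:87971078-87980451 in GENCODE M21 (GRCm38), on the plus strand. The share was 55.8% in endothelial, 39.8% in astrocyte, 59.4% in oligodendrocyte and 43.3% in neuroblast wells. Thinned to 200000 counts it was 88.5% of 78 mural wells, 46.8% of 77 endothelial, 26.8% of 179 astrocyte, 23.2% of 293 oligodendrocyte and 37.0% of 27 neuroblast wells. In the scrambled mice 84.6%, 100%, 100% and 85.7% of mural wells had a hit, and in the antagomir mice 75%, 92.3%, 92.9% and 85.7%. The mural share was above the endothelial, the astrocyte and the oligodendrocyte share in 8 of 8 mice and above the neuroblast share, which rests on 1 to 5 wells per mouse, in 7 of 8. In mouse 7 both neuroblast wells had a hit. The level told the mural and endothelial classes apart less. It was 274 ± 64.6 CPM (SD, n = 8) in mural and 259 ± 124 CPM in endothelial wells, higher in mural wells in 4 of 8 mice. Over single wells the lower quartile, median and upper quartile were 123, 209.8 and 326 CPM in mural and 0, 36.4 and 368 CPM in endothelial wells. Nes was hit in 13 of 16 contractile and 64 of 69 other mural wells, and in 2 of the 4 fibroblast-marker wells. Other filament genes differed, with Vim hit in 22.4% and Lmna in 52.9% of mural wells and Gfap in none, which allows a share of hits of up to 3.53%.

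**Figure D3:**
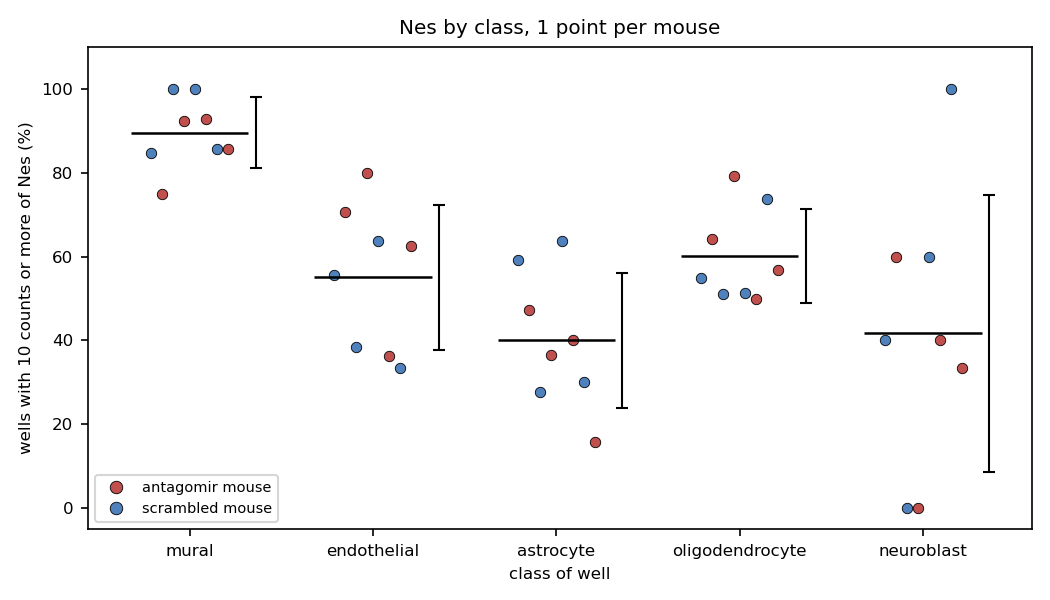
Share of wells (%) with 10 counts or more of Nes in 5 classes, with 1 point per mouse coloured by treatment. Lines are means over 8 mice and bars are 1 SD. Mural points run from 75% to 100%, and each lies above the endothelial, astrocyte and oligodendrocyte points of the same mouse, and above the neuroblast point in 7 of 8.

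Mural samples also differed by the project entry of the well table. Genes of the immediate early response, which cells switch on within minutes of a stimulus and which tissue dissociation can set off, were high in the 4 mice of project L5 and low in the 4 of project L6. The list summed here held 28 immediate early and dissociation stress genes, heat shock genes among them. Its mural level was 22920.5, 19307, 17574 and 27087 CPM in mice 1, 2, 5 and 6 and 3967, 1320.3, 1294 and 4287 CPM in mice 3, 4, 7 and 8. The projects did not overlap. They did for its heat shock gene Hspb1, at 401, 1002, 1033 and 801 CPM in L5 and 522, 519, 442 and 1101 CPM in L6. Fos, the founding member of the family, had 9894, 7025, 6971 and 9463 CPM in project L5 and 910.5, 0.319, 0 and 907 CPM in project L6, and was hit in 21 of 47 and 5 of 38 wells. Junb, its partner, had 1284, 1504, 1224 and 1955 CPM and 57.8, 55.5, 0 and 19.3 CPM. Egr1, a zinc finger factor of the same response, was hit in 22 of 47 and 3 of 38 wells. Each of these 3 genes was higher in every L5 mouse than in any L6 mouse. Of the 22 members that could be tested, 21 had a lower estimate in L6 and 13 had all 4 L6 mice below all 4 L5 mice, as did 180 of all 7050 genes (2.55%). The median log2 difference of the list, L6 minus L5, was -3.60, beside -0.12 for all tested genes. By edgeR with Benjamini-Hochberg adjustment 0 of the 22 passed 0.05 in the comparison of projects, which was added after the data were seen. With the 4 fibroblast-marker wells left out the summed levels in mice 3, 4, 7 and 8 were 4326, 1320.3, 1453 and 4836 CPM.

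The same comparison called 2 of 7050 genes (0.0284%). The nuclear non-coding RNA Malat1 had 2404, 2891, 3269 and 2389.8 CPM in project L5 and 12786, 14343, 12799 and 15037 CPM in L6, a log2 difference of 2.16 ± 0.18 (SE; edgeR, adjusted p = 0.000566). The mitochondrial ribosomal RNA mt-Rnr2 had 6285, 4253, 4811 and 6553 CPM and 19599.8, 15150.5, 31304 and 19008 CPM, a log2 difference of 1.76 ± 0.23 (SE; edgeR, adjusted p = 0.0290). Both were higher in every L6 mouse, as were 135 of 7050 genes (1.91%). So was the median mitochondrial share of counts. Mcam, an adhesion protein of mural cells, had a log2 difference of -2.01 (edgeR, adjusted p = 0.457). Pdgfrb chose the wells as a class marker, so its levels are given without a test. It had 3069.9, 3495, 3966 and 2554 CPM in project L5 and 2151, 1776, 1524 and 1214 CPM in L6. Endothelial wells of the same mice had summed levels of the immediate early and dissociation stress list of 30673, 33479, 22860.5 and 14114 CPM in project L5 and 26683, 13994, 13544 and 11721 CPM in L6. There the projects overlapped. The endothelial sums rest on 18, 17, 11 and 11 wells in L5 and on 13, 5, 3 and 8 wells in L6. Whether the difference between the classes exceeds the spread was not tested. Between the sort days 0 of 7050 genes (0.00%) were called by edgeR, with 73 at an unadjusted p under 0.05. The part of library handling in these differences was not tested.

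**Figure D4:**
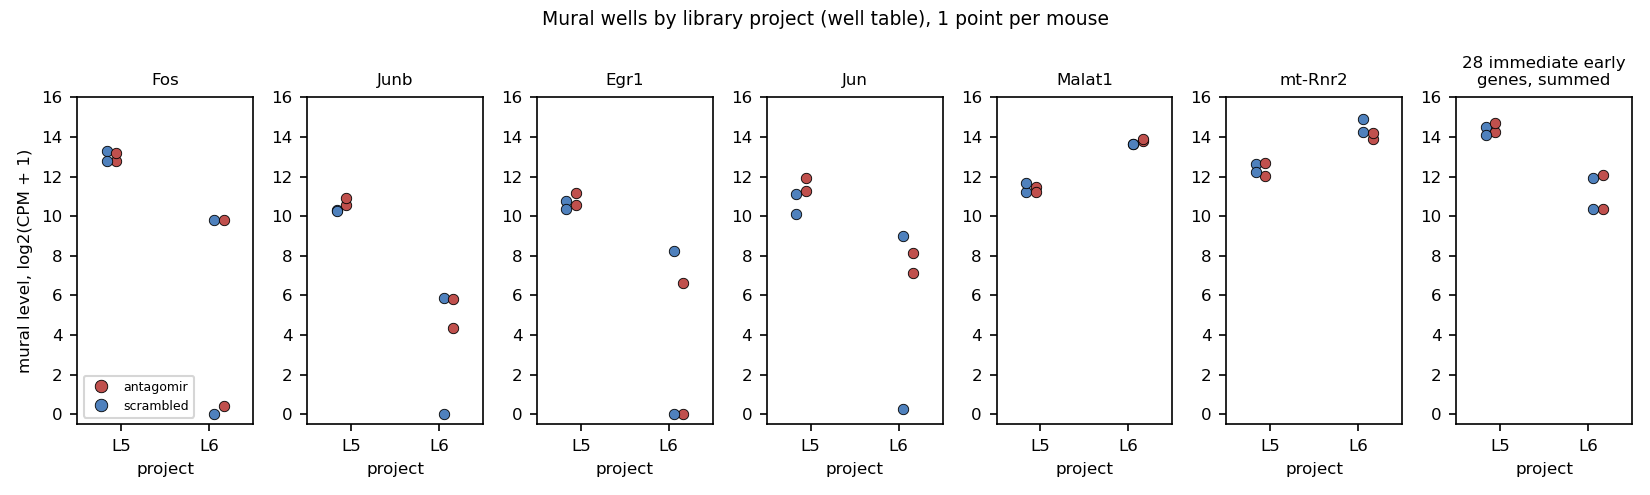
Mural levels, log2(CPM + 1), of 6 genes and of the sum of 28 immediate early and dissociation stress genes, by project, with 1 point per mouse coloured by treatment. The immediate early genes shown and the sum are higher in the L5 mice, Malat1 and mt-Rnr2 in the L6 mice, and both treatments are on both sides.

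The design compares antagomir with scrambled mice, to ask what blocking miR-132 does to cells of the niche. The mural share of kept wells was 13.98%, 11.96%, 13.2% and 8.05% in the scrambled and 8.89%, 14.4%, 15.7% and 8.33% in the antagomir mice. The means were 11.8% ± 2.63 and 11.8% ± 3.78 (SD, n = 4 each), a difference of 0.0573 percentage points (exact two-sided permutation p = 1). The contractile share of mural wells was 15.6% ± 10.4 and 17.5% ± 22.2, a difference of 1.93 points (exact permutation p = 0.914), and without mouse 6 it was -8.89 points (exact permutation p = 0.314). The Nes share was 92.6% ± 8.58 and 86.5% ± 8.31, a difference of -6.11 points (exact permutation p = 0.4). For all 3 shares the groups overlapped, and 4 against 4 mice allow no p below 0.0286.

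No gene passed the edgeR test between treatments in mural wells. By edgeR's quasi-likelihood test with Benjamini-Hochberg adjustment 0 of 7050 genes (0.00%) were called, and 68 (0.965%) had an unadjusted p under 0.05, 30 of them higher and 38 lower after the antagomir. DESeq2 called 287 of 14554 genes, 116 higher and 171 lower. Of the 287, 211 had no count at all in 1 of the treatments, 173 were hit in at most 3 mural wells and 6 in 8 wells or more. Among the 6 were Fbxo25, Rnf185, Mkrn2 and Elp4, which are named below, were not hit in any antagomir well and were not called by edgeR. Precision was low. Over 4893 genes above 20 CPM and hit in at least 8 wells, the 95% interval of a log2 difference reached a median of 3.65 to either side. Each gene tested and named here had an edgeR adjusted p of 1.00.

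The 6 class markers chose the wells, so their levels by treatment are a description and no test is given. Vtn had 32389, 34374, 56680.1 and 36254 CPM in the scrambled and 38122, 42600, 32949.5 and 46381 CPM in the antagomir mice. Rgs5 had 6738, 10982, 5262 and 9195 CPM and 5318, 5531, 8021 and 4371 CPM. Pdgfrb had 3069.9, 2151, 3966 and 1524 CPM and 3495, 1776, 2554 and 1214 CPM. The groups overlapped for these 3 and for Notch3, Myl9 and Acta2. Outside the rule, Nes had 368, 327, 195 and 225 CPM in the scrambled and 262, 252, 346 and 218 CPM in the antagomir mice, with a 95% interval of the log2 difference from -1.22 to 1.10. Nacc2, a corepressor and, by the title of the study, an effector through which miR-132 acts, was hit in 8 of 85 mural wells, 3 of 43 in the scrambled and 5 of 42 in the antagomir mice. It had 61.7, 0, 0 and 0 CPM and 6.01, 5.42, 233 and 0 CPM. Counts came from mouse 1 alone among the scrambled mice, and in the antagomir group mouse 6 was the high mouse. Its log2 difference was 1.90, and 11.50 without mouse 1 and -2.19 without mouse 6. With mouse 1 left out the scrambled group had no count of Nacc2, so the size of 11.50 is not set by the counts.

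Among genes hit in at least 8 mural wells, the 8 with the smallest unadjusted p in each direction are named. Serping1, the C1 inhibitor of complement, had 369, 203, 245 and 219.5 CPM in the scrambled and 527, 661, 484 and 1261 CPM in the antagomir mice, with a log2 difference of 1.45 ± 0.49 (SE). The groups did not overlap, which held for 175 of 7050 genes (2.48%). Without the 4 fibroblast-marker wells it had 369, 32.7, 245 and 90.9 CPM in the scrambled and 169, 661, 484 and 81.3 CPM in the antagomir mice, the groups overlapped and the difference was 0.85 ± 0.90. Slc1a3, a glutamate transporter of astrocytes, is in the astrocyte panel of the class rule, which limits its level in mural wells, so it is given without a test. It had 19.3, 65.9, 12.7 and 66.5 CPM in the scrambled and 457, 148, 25.2 and 380.1 CPM in the antagomir mice, and without those wells 19.3, 1.35, 12.7 and 74.6 CPM in the scrambled and 39.3, 148, 25.2 and 43.1 CPM in the antagomir mice. For both genes the highest antagomir mouse had a fibroblast-marker well. A list of 8 fibroblast markers held the 6 of the check, Igf2 and Col3a1. Summed over it, the mural level was 799, 2544, 1350.5 and 4282 CPM in the scrambled and 5692, 1952, 569 and 12608 CPM in the antagomir mice. Without the fibroblast-marker wells it was 799, 467, 1350.5 and 1136 CPM and 1911, 1952, 569 and 910.4 CPM. Igf2 was hit in 41 and Slc6a13 in 31 of the other 81 mural wells, so the sum is not a measure of fibroblasts alone.

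Pltp, the phospholipid transfer protein, had 128, 361, 333 and 148 CPM in the scrambled and 471, 753, 307 and 1843 CPM in the antagomir mice, a log2 difference of 1.75 ± 0.62, and the groups overlapped. It was hit in 25 of 42 antagomir and 11 of 43 scrambled wells, and without the fibroblast-marker wells the difference was 1.73 ± 0.73. Prnp, the prion protein, had 15.7, 10.5, 37.4 and 0.210 CPM in the scrambled and 143, 151, 85.1 and 389 CPM in the antagomir mice, hit in 13 of 42 and 4 of 43 wells. Flot1, a scaffold of membrane rafts, had 1.47, 27.9, 52.4 and 0 CPM in the scrambled and 78.8, 167, 324 and 639 CPM in the antagomir mice, hit in 14 of 42 and 4 of 43 wells. For Prnp and Flot1 the groups did not overlap, with or without the fibroblast-marker wells. Over all mural wells this held for 175 of 7050 genes (2.48%), and no such share is given without those wells. Genes named for a small p-value tend to be among the 175, so the lack of overlap adds no separate support. Dcaf7 had 59.99, 50.3, 25.2 and 41.4 CPM in the scrambled and 69.1, 99.6, 390.1 and 326 CPM in the antagomir mice. Its groups did not overlap over all wells and did without the fibroblast-marker wells. Mill2 and the splicing helicase Snrnp200 differed by 4.28 and 3.14. Both overlapped between the groups over all mural wells, and Mill2 did not without the fibroblast-marker wells. Prnp, Flot1, Mill2 and Snrnp200 had 8 hit wells or more in the antagomir group and fewer than 8 in the scrambled group. They thus met the limit of 8 wells through the antagomir group.

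In the other direction 3 genes had no count in any of the 42 antagomir wells. Fbxo25, an F-box protein of a ubiquitin ligase, was hit in 8 of 43 scrambled and 0 of 42 antagomir wells, with 155, 121, 66.2 and 67.1 CPM in the scrambled mice. Rnf185, a ubiquitin ligase of the endoplasmic reticulum, was hit in 8 and 0 wells, with 71.6, 107, 84.2 and 96.9 CPM. Mkrn2, a ring finger protein, was hit in 9 and 0 wells, with 57.3, 11.3, 223 and 64.1 CPM. A count is a read here, and the contrast rests on 8 or 9 wells with a hit, so no fold bound is given. These 3 genes, Elp4 and Sspn reached the limit of 8 wells through the scrambled wells alone, so no p-value is given for them. Elp4, of the elongator complex, was hit in 8 scrambled and 0 antagomir wells, and Sspn, of the dystrophin complex, in 8 and 1. Sel1l, part of the machinery that clears misfolded proteins, had 105, 113, 255 and 183 CPM in the scrambled and 16.5, 38.9, 27.2 and 31.7 CPM in the antagomir mice, and Spag7 had 114, 165, 191 and 411 CPM in the scrambled and 33.9, 60.5, 75.7 and 47.6 CPM in the antagomir mice. For Elp4, Sspn, Sel1l and Spag7, and for the 3 genes with no antagomir count, the groups did not overlap. This held for 175 of 7050 genes (2.48%), and genes named for a small p-value tend to be among them. Sel1l was hit in 9 scrambled and 5 antagomir wells and Spag7 in 10 and 6. Both thus also met the limit of 8 wells through the scrambled group. Mir6236, listed as a microRNA gene, was hit in 41 of 43 scrambled and 35 of 42 antagomir wells and overlapped between the groups, with mouse 1 at 2071 CPM far above the other 7.

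**Figure D5:**
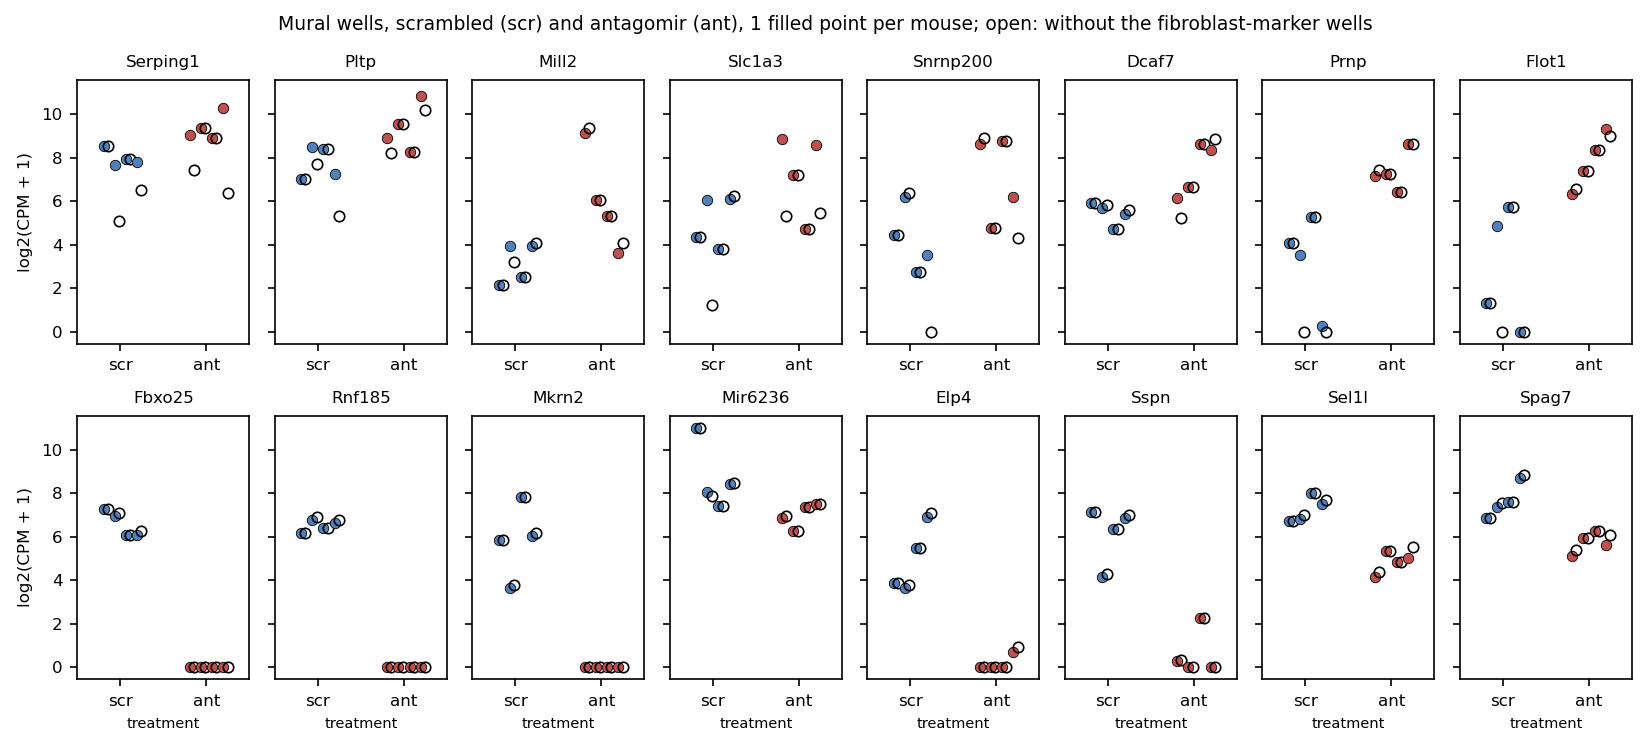
Mural levels, log2(CPM + 1), of the 16 genes named for the treatment comparison, 8 with higher estimates after the antagomir (upper row) and 8 with lower ones. Filled points are mice over all mural wells, and open points the same mice without the 4 fibroblast-marker wells, which moves Serping1 and Slc1a3 most visibly. None passed the edgeR threshold.

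No member of any of the 21 gene lists was called in either direction, where 0.00% of all tested genes were. Of 15 tested contractile genes 12 had a lower and 3 a higher estimate after the antagomir, with a median log2 difference of -0.37, beside -0.003 for all genes. The 20 pericyte genes split 12 lower and 8 higher (median -0.08), and the 13 tested Notch genes 7 and 6. These counts and medians include class markers that chose the wells, so they are a description only. Among these markers are Myl9 and Acta2 (contractile), Rgs5 (pericyte) and Notch3 (Notch), each with a lower estimate. For 18 tested genes reported elsewhere as targets of miR-132, 8 had a higher and 10 a lower estimate, with a median of -0.07. Of 55 tested subunits of oxidative phosphorylation 37 had a higher estimate (median 0.15), and of 49 ribosomal proteins 25 did. In the vasomotor list Gucy1a3 had the lowest unadjusted p, 0.0468 by edgeR, at 828, 1179, 913 and 1082 CPM in the scrambled and 442, 506, 523 and 46.0 CPM in the antagomir mice. Its groups did not overlap, which held for 1 of the 24 tested genes of this list and for 175 of all 7050 (2.48%). It also held for 1 of the 55 oxidative phosphorylation genes and 1 of the 49 ribosomal protein genes. The 22 immediate early and dissociation stress genes had a median of 0.31, with both treatments in both projects. Neuron markers and blood transcripts had no count in any mural well, and the oligodendrocyte list summed to at most 71.2 CPM in a mouse. Of the 12 genes of the astrocyte list, 10 were hit in some mural well. The 3 that passed the filter on low counts, among them the rule gene Slc1a3, had a median log2 difference of 1.51. The part of other cells' transcripts in the treatment estimates was not tested.

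Whether mural cells responded differently from endothelial cells was tested as an interaction in the 8 mice that held both. These mice had 3 to 18 endothelial wells each. By edgeR 0 of 9676 genes (0.00%) were called, with 185 at an unadjusted p under 0.05, and DESeq2 called 295. Leaving out 1 mouse at a time gave 0 to 6 calls, with 6 without mouse 3 and 0 without mouse 8.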

How the data were processed

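Sorted cells of 8 mice were read by Smart-seq2, 96 wells per mouse. Raw counts per gene symbol and well were deposited by the authors for 31557 genes and 768 wells, with a table of each well's mouse, treatment and days of handling. Per the submitters' processing notes, FastQC, STAR 2.5.2, Subread, featureCounts 1.5.1, Seurat 2.3.1 and build mm10 were used, with no role given. No source used here gives the strand setting. The 8 mice could not be tied to the 4 deposited samples, so treatment was taken from the well table.

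The class members and gene lists were chosen with earlier results of these data known. Mural counts were summed per mouse, filtered with filterByExpr, scaled with TMM and tested with edgeR 4.0.16 (quasi-likelihood, Benjamini-Hochberg, threshold 0.05) in R 4.3.3. DESeq2 1.42.0 and limma 3.58.1 were alternatives. Shares were compared by exact permutation over mice, and intervals of single shares are Wilson 95% intervals that cover counting error of wells only. Levels are CPM of summed counts, with a pseudocount of 1 CPM on log2 plots, and lengths are exon unions of GENCODE. Doublets were not called. No columns of other samples were present. The scripts were tested on simulated data.

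Named genes were, for treatment, the 8 with the smallest edgeR p in each direction among genes with 10 counts in at least 8 mural wells, with the 6 class markers, Nes and Nacc2; for the class, the 20 with the largest gap in share to the other classes; and within it, the 10 with the largest gap in each direction between contractile and other wells. Same-day mice of a project were not paired by the data, with correlations of their deviations from 0.0056 to 0.0468. The comparison of projects and the limit of 3 fibroblast markers were chosen after the data were seen. A gene of the astrocyte list is not reported here.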

Additional observations from a re-analysis of the deposited data

Results flagged for a closer look

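Of 51 groups of 4 mice examined, 5 had a mouse far from the other 3 by Dixon's test at the 95% level, and chance gives about 1 in 20 groups. Values are mural log2(CPM + 1). In the antagomir group Elp4 stood at 0.70 in mouse 8 and at 0 in the other 3, Sspn stood at 2.24 in mouse 6, and Myl9 at 12.64 in mouse 6. In the scrambled group Notch3 stood at 8.02 in mouse 3, the lowest of the group, and Nacc2 at 5.97 in mouse 1, with the other 3 at 0. Myl9 and Notch3 are class markers that chose the wells, so their flags stand as values only. Where the other 3 mice are at 0, as for Elp4 and Nacc2, any value above 0 is flagged. The rate of 1 in 20 does not cover such groups.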

How the results depend on the processing

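No gene was called by edgeR between treatments with the replicate block (pairs of mice by sort day and project, 0 calls, 83 unadjusted), with either covariate, by limma (260 unadjusted), or without any 1 mouse (0 calls each, 176 to 290 unadjusted). The block is a pairing by label only, since the correlations within pairs reached at most 0.0468. DESeq2 called 287 genes and edgeR without a filter 1; for the interaction with endothelial cells they called 295 and 5, and leaving out 1 mouse gave 0 to 6. The difference in mural share turned to -0.237 points with at least 4 hits, -0.00542 with 1000 to 6000 genes, -1.27 within L5 and -1.30 within sort day 1, and ran from -1.24 to 1.23 without 1 mouse. The contractile difference turned to -7.84 within L6, -9.83 within sort day 1 and -2.82 with at least 4 contractile genes, and ran from -8.89 to 7.78. The Nes share difference turned to 0.446 with Nes at 1 count, and ran from -8.77 to -2.29. Small log2 differences changed sign, including those of the class markers, which chose the wells and stand here as values only. Vtn was 0.030 with the block, 0.0070 with project as a covariate, 0.16 by limma, 0.0014 with 1000 to 6000 genes, 0.33 within L6, 0.17 within sort day 1, and -0.12 to 0.23 without 1 mouse. Nes was 0.0017 with sort day as a covariate, 0.018 with at least 4 hits, 0.17 with no hit in other panels, 0.038 without contractile wells, 0.00024 without fibroblast-marker wells, 0.053 within L5, 0.52 within sort day 2, and -0.25 to 0.17 without 1 mouse. Rgs5 was 0.11 and Notch3 0.0026 within L5, Myl9 0.18 and Acta2 2.01 within sort day 2, and Nacc2 -2.62 within sort day 1. Without 1 mouse Acta2 ran from -10.93 to 0.92 and Nacc2 from -2.19 to 11.50, the latter with no count in the scrambled group. The causes were not tested. Depth limits genes seen in few wells, and the mice number 4 per group.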
